A study of Homo sapiens with 12 samples.

Results

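A group of 39 genes that act at the passage from G1 into S phase and in DNA replication was examined in SH-SY5Y cells, a human neuroblastoma line, after siRNA transfection against SETD1A. The genes were chosen by name for these roles. Of the 39, 36 had a probe that was detected (detection p under 0.01) on at least 4 of the 12 arrays, among 9833 measured genes in all, and each is described by its brightest such probe. CDC6, GINS1 and CCNE2 were detected on 0 arrays and have no value here. Of the 36 measured members, 33 were detected on all 12 arrays, POLD3 on 11, E2F1 on 10 and ORC1 on 9.

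The groups were SETD1A siRNA s18790, SETD1A siRNA s18789 and a control siRNA, each with 4 samples and 1 bead array per sample, collected 96 hours after lipid transfection in cells kept in serum-containing medium. All 3 groups were transfected, and both SETD1A siRNAs were set against the same 4 control arrays. The labels do not state whether replicates came from separate cultures. Each p-value therefore measures the spread among the samples listed, and that spread may be technical. Levels are background-corrected, quantile-normalised log2 intensities. A member is termed called where its adjusted p was under 0.05 in limma (Benjamini-Hochberg, taken across the whole table of 15922 kept probes), and errors of differences are standard errors (SE) of that fit. In such bulk samples fewer cells in S phase and less of a transcript per cell cannot be told apart.

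Cells commit to replication when E2F transcription factors, released from the retinoblastoma protein by cyclin-dependent kinases, raise a shared set of transcripts. In G1 the origin recognition complex, CDC6 and CDT1 load the MCM2-7 helicase on DNA, and in S phase CDC45 and GINS turn it into the active replicative helicase. DNA polymerases, the sliding clamp PCNA and its RFC loader then copy the template, and enzymes of deoxynucleotide synthesis supply the building blocks. SETD1A, the siRNA target, methylates lysine 4 of histone H3.

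SETD1A had log2 levels of 6.98, 7.45, 6.90 and 6.83 on the s18790 arrays, 7.34, 7.22, 7.10 and 7.30 on the s18789 arrays and 7.52, 7.64, 7.50 and 8.03 on the control arrays. Every array of either SETD1A siRNA lay below every control array. The difference was -0.63 ± 0.15 with s18790 (adjusted p = 0.0276) and -0.43 ± 0.15 with s18789 (adjusted p = 0.616), and the exact two-sided permutation test gave p = 0.0286 for each (no smaller p is possible with 4 arrays a group). The call with s18790 no longer passed when control replicate 1 (0.0507) or control replicate 2 (0.0683) was left out, or s18790 replicate 1 (0.0730) or s18790 replicate 4 (0.0660). The share of probes detected per array was 29.1% to 32.9% with s18790, 31.8% to 33.6% with s18789 and 29.3% to 33.5% in controls, with the lowest values on s18790 replicate 2 and control replicate 4. Those arrays also lay apart on the first principal component (60.6% of the variance), at 83.7 and 26.8, with all other arrays between -23.7 and 12.7. Of the sympathoadrenal marker genes examined here, 11 were detected on all 12 arrays and TH on none. The glial markers S100B, SOX10, GFAP and ERBB3 were detected on 0 arrays, as were the mesenchymal markers FN1, PRRX1 and CD44. Of the same mesenchymal list, VIM, SNAI2, COL1A1, COL3A1 and NOTCH2 were detected on all 12 arrays and YAP1 on 9.

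Promoter windows of RefSeq (GRCh38.p14, 250 bases before to 50 after the transcript start) were matched by symbol for 35 of the 39 genes; MCM4, MCM5, POLD3 and CCNE2 had none in the table used. The letters TTTGGCGC or TTTCGCGC, forms of the E2F binding motif, occurred on either strand in 11 of the 35 windows (31.4%), against 1.15% of all 35116 promoter windows of the table. CCAAT, the letters of the NF-Y box, occurred on either strand in 21 of the 35 (60%), against 34.6% of all windows. Both motifs were held by 8 of the 35, against 169 of the 35116 windows. Each member was read from the first window under its symbol, while the shares over all windows count every window. Members with the E2F letters were CDC6, MCM2, MCM3, MCM6, MCM7, GINS1, POLA1, POLA2, DTL, E2F1 and E2F2. The windows of the 5 members called with s18790 against control are shown first, since the results turn on them, followed by those of MCM6 and E2F1 as windows that hold the E2F letters. Capitals mark the E2F letters and CCAAT on either strand. GINS2 lies at chr16:85688905-85689204, minus strand, GINS3 at chr16:58392221-58392520, plus strand, TK1 at chr17:78187155-78187454, minus strand, PRIM1 at chr12:56752274-56752573, minus strand, RFC5 at chr12:118016453-118016752, plus strand, MCM6 at chr2:135876394-135876693, minus strand, and E2F1 at chr20:33686336-33686635, minus strand.
GINS2: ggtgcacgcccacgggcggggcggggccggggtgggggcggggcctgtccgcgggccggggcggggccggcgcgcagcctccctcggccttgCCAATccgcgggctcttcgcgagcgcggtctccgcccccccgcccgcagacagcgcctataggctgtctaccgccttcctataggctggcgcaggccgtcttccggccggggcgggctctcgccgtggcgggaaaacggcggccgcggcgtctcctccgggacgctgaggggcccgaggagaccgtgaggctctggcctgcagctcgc
GINS3: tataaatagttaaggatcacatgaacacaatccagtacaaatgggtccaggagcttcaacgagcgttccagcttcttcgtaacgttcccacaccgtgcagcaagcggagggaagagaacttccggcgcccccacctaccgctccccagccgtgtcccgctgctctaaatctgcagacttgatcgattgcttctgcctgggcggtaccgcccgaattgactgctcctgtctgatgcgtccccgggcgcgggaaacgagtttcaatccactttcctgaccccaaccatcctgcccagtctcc
TK1: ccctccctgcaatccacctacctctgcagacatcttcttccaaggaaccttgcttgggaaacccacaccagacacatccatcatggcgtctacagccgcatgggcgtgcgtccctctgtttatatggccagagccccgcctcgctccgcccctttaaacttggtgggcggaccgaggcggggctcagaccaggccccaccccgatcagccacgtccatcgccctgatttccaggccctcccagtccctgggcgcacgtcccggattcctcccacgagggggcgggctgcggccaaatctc
PRIM1: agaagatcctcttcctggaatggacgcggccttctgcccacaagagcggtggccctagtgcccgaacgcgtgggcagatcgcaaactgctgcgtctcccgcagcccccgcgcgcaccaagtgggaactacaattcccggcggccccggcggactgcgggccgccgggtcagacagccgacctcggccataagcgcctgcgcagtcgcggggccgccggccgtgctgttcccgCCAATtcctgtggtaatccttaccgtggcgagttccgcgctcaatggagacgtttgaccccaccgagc
RFC5: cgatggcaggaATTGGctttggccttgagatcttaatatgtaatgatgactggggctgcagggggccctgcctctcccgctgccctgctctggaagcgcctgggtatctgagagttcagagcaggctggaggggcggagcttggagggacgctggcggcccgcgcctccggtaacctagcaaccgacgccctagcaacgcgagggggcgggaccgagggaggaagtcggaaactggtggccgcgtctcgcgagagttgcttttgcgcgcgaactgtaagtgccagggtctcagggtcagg
MCM6: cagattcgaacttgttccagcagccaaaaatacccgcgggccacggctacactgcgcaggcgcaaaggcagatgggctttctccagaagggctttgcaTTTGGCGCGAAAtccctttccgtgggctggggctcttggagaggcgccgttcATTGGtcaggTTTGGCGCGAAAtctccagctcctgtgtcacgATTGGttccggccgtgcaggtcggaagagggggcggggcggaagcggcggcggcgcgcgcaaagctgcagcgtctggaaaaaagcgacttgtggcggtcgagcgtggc
E2F1: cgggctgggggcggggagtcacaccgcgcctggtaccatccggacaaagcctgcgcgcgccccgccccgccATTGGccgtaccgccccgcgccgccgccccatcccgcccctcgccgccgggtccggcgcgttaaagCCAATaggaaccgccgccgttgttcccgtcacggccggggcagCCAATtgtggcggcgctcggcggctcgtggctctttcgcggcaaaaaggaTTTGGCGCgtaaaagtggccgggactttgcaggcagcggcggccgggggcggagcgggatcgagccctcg
The MCM6 window holds 4 matches to the E2F letters, in overlapping pairs on opposite strands that begin 152 and 148 and again 90 and 86 bases before the start. E2F1 holds 1 match and 3 CCAAT boxes. None of the windows of the 5 called members holds TTTGGCGC or TTTCGCGC. Other forms of the E2F motif were not searched, so their absence from these windows is not shown. CCAAT occurs once each in those of GINS2, PRIM1 and RFC5 and in neither the GINS3 nor the TK1 window. A match describes letters in this window and is not a measured binding site.

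With s18790, TK1, GINS2 and GINS3 rose against control while RFC5 and PRIM1 fell, so that members moved in both directions. Of the 36 members, 5 were called (13.9%), against 8.32% of all kept probes; 3 were higher (8.33%, against 4.03% of probes) and 2 lower (5.56%, against 4.29%). With median scaling in place of quantile normalisation 0 members were higher and 2 lower, among 173 probes higher and 636 lower, so all 3 higher calls were lost. With s18789 none of the 36 was called by limma, where 0.0942% of probes were, although 5 (13.9%) had an unadjusted p under 0.05 with a positive difference, against 2.29% of probes, and 0 with a negative one, against 3.73%. Between the siRNAs 3 members were called (8.33%, against 4.2% of probes), all lower with s18790 (1.85% of probes lower, 2.34% higher): RFC5, MCM10 and TYMS. In all, 7 members were called in at least 1 comparison and 29 in none.

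The median member difference was 0.11 with s18790 and 0.11 with s18789, against 0.01 over all kept probes in each. Between the siRNAs it was 0.01, as over all probes. With median scaling the s18790 arrays gave a member median of 0.045 against -0.08 over all probes, and the s18789 arrays gave 0.22 against 0.08. The member median for s18790 minus s18789 was then -0.13, against -0.14. With s18790, 25 of 36 differences were positive (69.4%, against 50.8% of probes), ranging from -0.64 to 0.59. With s18789, 34 of 36 were positive (94.4%, against 52.7%), within a narrower range of -0.09 to 0.37. The 4 arrays of s18790 lay wholly above the 4 control arrays for 5 members (13.9%, against 6.95% of probes) and wholly below for 2 (5.56%, against 6.3%). The s18789 arrays lay wholly above control for 4 members (11.1%, against 2.86%) and wholly below for 0 (4.23% of probes). The s18790 arrays lay wholly above those of s18789 for 1 member (2.78%, against 7.88%) and wholly below for 4 (11.1%, against 6.1%).

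**Figure D1:**
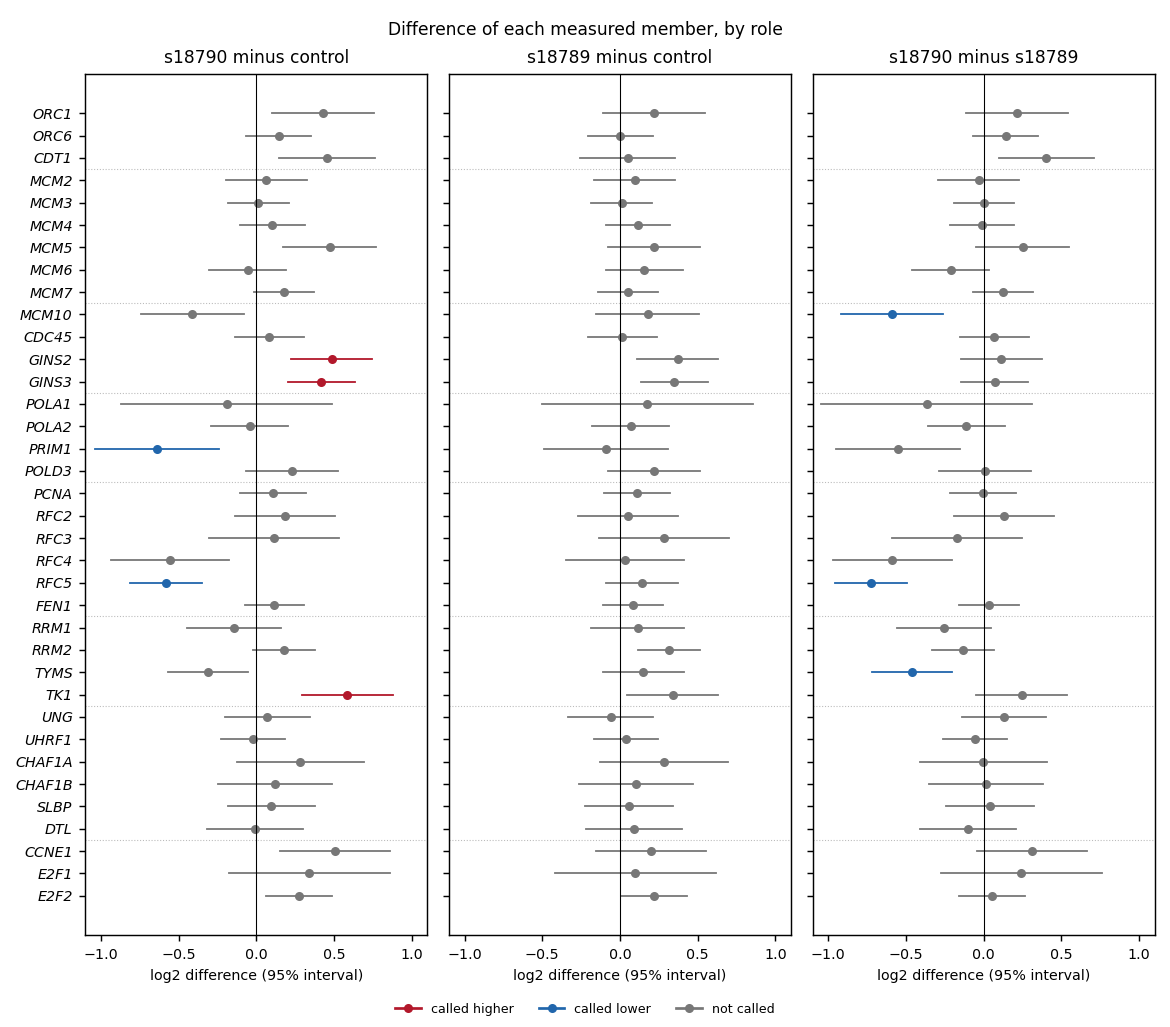
Log2 difference of each of the 36 measured members (points) with its 95% interval (lines) for s18790 minus control, s18789 minus control and s18790 minus s18789; dotted lines separate roles, red marks members called higher, blue those called lower and grey those not called. With s18790 members lie on both sides of 0, from -0.64 for PRIM1 to 0.59 for TK1, whereas with s18789 34 of 36 lie above 0.

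The origin licensing genes measured were ORC1 and ORC6, subunits of the origin recognition complex, and CDT1, which brings the MCM helicase to origins. None was called in any comparison. CDT1 had 9.01, 9.33, 8.76 and 9.02 on the s18790 arrays, 8.78, 8.57, 8.64 and 8.52 on the s18789 arrays and 8.40, 8.43, 8.58 and 8.90 on the control arrays. Each s18790 array lay above control replicates 1 to 3, but control replicate 4 overlapped the s18790 range. The CDT1 difference was 0.45 ± 0.14 with s18790 (adjusted p = 0.0690), 0.05 ± 0.14 with s18789 and 0.40 ± 0.14 between the siRNAs (adjusted p = 0.124). Without control replicate 4 CDT1 passed the test with s18790 (0.56, adjusted p = 0.0254), as it did without s18790 replicate 3 (0.54, 0.0351).

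ORC1, the largest subunit, had 6.05, 6.39, 5.97 and 6.14 on the s18790 arrays, 6.10, 5.57, 5.91 and 6.12 on the s18789 arrays and 5.83, 5.40, 5.81 and 5.80 on the control arrays. The s18790 arrays lay above all control arrays, though ORC1 was detected on 4 of 4 s18790, 3 of 4 s18789 and 2 of 4 control arrays. Its difference was 0.43 ± 0.15 with s18790 (adjusted p = 0.101) and 0.22 ± 0.15 with s18789. ORC6 stood at 0.14 with s18790 and 0.00 with s18789, but its other kept probe gave -0.35 with s18790.

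Among the 6 subunits of the MCM2-7 helicase none was called. MCM5 came nearest, with 8.77, 9.04, 8.45 and 8.61 on the s18790 arrays, 8.53, 8.60, 8.37 and 8.37 on the s18789 arrays and 8.11, 8.17, 8.19 and 8.51 on the control arrays. As for CDT1, control replicate 4 reached into the s18790 range. The MCM5 difference with s18790 was 0.47 ± 0.14 (95% interval 0.17 to 0.77, adjusted p = 0.0531), and with s18789 it was 0.22 ± 0.14. MCM5 passed with s18790 in 10 of 24 alternatives, among them without control replicate 4 (0.56, adjusted p = 0.0279), without s18790 replicate 3 (0.56, 0.0265) and without background correction (0.0423). The other 5 subunits had smaller differences with both siRNAs. MCM7 stood at 0.18 with s18790 and 0.05 with s18789, MCM4 at 0.10 with s18790 and 0.12 with s18789, and MCM2 at 0.06 with s18790 and 0.10 with s18789. MCM3 stood at 0.01 with s18790 and 0.01 with s18789. MCM6 stood at -0.06 with s18790 and 0.16 with s18789. The 95% interval of the MCM3 difference with s18790 was -0.18 to 0.21.

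Of the genes that activate the helicase, GINS2 and GINS3 rose with s18790 against control, and MCM10 was lower with s18790 than with s18789. GINS2, a subunit of the GINS complex of the replicative helicase, had 9.86, 10.34, 10.07 and 9.97 on the s18790 arrays, 10.03, 9.85, 9.85 and 10.06 on the s18789 arrays and 9.60, 9.48, 9.47 and 9.76 on the control arrays. All 8 arrays of the SETD1A siRNAs lay above the highest control array. GINS2 rose with s18790 by 0.48 ± 0.12 on the log2 scale (n = 4 against 4, adjusted p = 0.0297), and its difference with s18789 was 0.37 ± 0.12 (adjusted p = 0.516). GINS3, another subunit of that complex, had 8.32, 8.61, 8.35 and 8.31 on the s18790 arrays, 8.44, 8.33, 8.29 and 8.24 on the s18789 arrays and 7.92, 7.98, 7.92 and 8.08 on the control arrays. Again no SETD1A siRNA array reached down to the control range. GINS3 rose by 0.42 ± 0.10 with s18790 (adjusted p = 0.0234), and its difference with s18789 was 0.35 ± 0.10 (adjusted p = 0.405). Between the siRNAs the GINS2 difference was 0.11 (interval -0.15 to 0.38) and that of GINS3 was 0.07 (-0.14 to 0.29).

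The GINS2 call with s18790 was lost without control replicate 1, 2 or 3 (adjusted p = 0.0782, 0.0937 and 0.0928). That of GINS3 was lost without the same arrays (0.0782, 0.0660 and 0.0752). With median scaling the adjusted p was 0.193 for GINS2 and 0.228 for GINS3 and, with just the 8 arrays of a comparison in the fit, it was 0.101 and 0.0951. Each call was lost in 6 of 24 alternatives, among them the replicate block. Both genes were highest on s18790 replicate 2, and without that array and control replicate 4 their differences were 0.45 (adjusted p = 0.0111) and 0.38 (0.0128).

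MCM10, which binds the helicase as it is activated, differed between the siRNAs. Its levels were 9.44, 8.71, 9.45 and 9.44 on the s18790 arrays, 9.73, 9.88, 9.91 and 9.88 on the s18789 arrays and 9.68, 9.64, 9.76 and 9.60 on the control arrays. Every s18790 array lay below every array of the other groups, and s18790 replicate 2 lay furthest down. MCM10 was lower with s18790 than with s18789 by 0.59 ± 0.15 on the log2 scale (n = 4 against 4, adjusted p = 0.0490). Against control its difference was -0.41 ± 0.15 with s18790 (adjusted p = 0.116), or -0.23 without s18790 replicate 2, and 0.18 ± 0.15 with s18789. The call between the siRNAs was lost in 13 of 24 alternatives, including without each of 10 single arrays, with adjusted p up to 0.140; the exceptions were s18790 replicates 2 and 3, without which MCM10 was at -0.41 (adjusted p = 0.0183) and -0.65 (0.0388). CDC45, the third component of the active helicase beside MCM and GINS, stood at 0.08 with s18790 and 0.01 with s18789.

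Of the polymerase and primase genes, PRIM1 fell with s18790. PRIM1, the catalytic subunit of primase that lays down RNA primers, had 8.09, 7.71, 8.72 and 8.27 on the s18790 arrays, 8.66, 8.84, 8.67 and 8.84 on the s18789 arrays and 8.96, 8.95, 8.93 and 8.52 on the control arrays. Its s18790 values spread over a full log2 unit, and replicate 3 lay within the range of both other groups. PRIM1 fell to 0.64 of control with s18790 (log2 -0.64 ± 0.18, n = 4 against 4, adjusted p = 0.0498), its difference with s18789 was -0.09 ± 0.18, and between the siRNAs it was -0.55 ± 0.18 (adjusted p = 0.107). The call lay at the threshold and was lost in 13 of 24 alternatives, including without each single array except s18790 replicate 3 and control replicate 4, with adjusted p from 0.0650 without s18790 replicate 2 to 0.136 without control replicate 1. A second PRIM1 probe gave -0.92 with s18790 (adjusted p = 0.00589) and -0.70 between the siRNAs (0.0342).

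POLA1, the catalytic subunit of polymerase alpha, had 1 array far from the rest. Its levels were 8.09, 6.66, 8.38 and 8.27 on the s18790 arrays, 8.02, 8.28, 8.14 and 8.42 on the s18789 arrays and 8.25, 8.12, 8.20 and 7.58 on the control arrays. On s18790 replicate 2 POLA1 lay more than a log2 unit below each of the other 11 arrays except control replicate 4. The s18790 difference of -0.19 had an interval of -0.87 to 0.49, and without s18790 replicate 2 it was 0.21. POLA2, the regulatory subunit of the same polymerase, stood at -0.04 with s18790 and 0.07 with s18789. POLD3, an accessory subunit of polymerase delta, stood at 0.23 with s18790 and 0.22 with s18789.

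The clamp loader held the call that depended least on the processing. RFC5, a small subunit of the RFC complex that loads PCNA onto DNA, had 8.71, 8.74, 8.57 and 8.61 on the s18790 arrays, 9.48, 9.38, 9.32 and 9.33 on the s18789 arrays and 9.15, 9.17, 9.13 and 9.51 on the control arrays. All 4 s18790 arrays lay below all 8 other arrays. RFC5 fell to 0.67 of control with s18790 (log2 -0.58 ± 0.11, n = 4 against 4, adjusted p = 0.00655) and was lower than with s18789 by 0.72 ± 0.11 (adjusted p = 0.00336). With s18789 the difference was 0.14 ± 0.11 (interval -0.09 to 0.37). Both calls held in each of the 24 alternatives run, with adjusted p up to 0.0449 against control and 0.0194 between the siRNAs.

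RFC4, another small subunit of the loader, had 9.24, 8.68, 9.66 and 9.32 on the s18790 arrays, 9.77, 9.61, 9.95 and 9.91 on the s18789 arrays and 9.92, 9.81, 9.79 and 9.60 on the control arrays. Replicate 3 of s18790 lay among the values of s18789 and control, and the other 3 s18790 arrays lay below them all. Its difference was -0.56 ± 0.18 with s18790 (adjusted p = 0.0714), 0.03 ± 0.18 with s18789 and -0.59 ± 0.18 between the siRNAs (adjusted p = 0.0783). Without s18790 replicate 3 RFC4 passed against control (-0.70, adjusted p = 0.0212) and against s18789 (-0.73, 0.0248). RFC3 had 8.20, 7.50, 8.32 and 8.64 on the s18790 arrays, 8.23, 8.33, 8.43 and 8.35 on the s18789 arrays and 8.24, 7.88, 8.14 and 7.95 on the control arrays. Among the 12 arrays s18790 replicate 2 was the lowest and s18790 replicate 4 the highest. The RFC3 difference was 0.11 ± 0.19 with s18790 and 0.28 ± 0.19 with s18789, and its size and sign with s18790 rested on single arrays: it was 0.33 without s18790 replicate 2 and -0.04 without s18790 replicate 4. RFC2 stood at 0.18 with s18790 (0.06 without s18790 replicate 2) and 0.05 with s18789. PCNA, the clamp itself, stood at 0.11 with s18790 and 0.11 with s18789, and FEN1, which removes the flaps of lagging strand fragments, at 0.12 with s18790 and 0.08 with s18789.

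Among the enzymes of nucleotide supply TK1 rose with s18790, and TYMS was lower with s18790 than with s18789. TK1, the thymidine kinase of the salvage pathway, had 9.04, 9.60, 9.02 and 9.04 on the s18790 arrays, 8.99, 8.97, 8.87 and 8.89 on the s18789 arrays and 8.51, 8.58, 8.49 and 8.79 on the control arrays. All 8 arrays of the SETD1A siRNAs lay above the control arrays, and s18790 replicate 2 was the highest. TK1 rose with s18790 by 0.59 ± 0.13 on the log2 scale (n = 4 against 4, adjusted p = 0.0203), and its difference with s18789 was 0.34 ± 0.13 (adjusted p = 0.710). Without s18790 replicate 2 and control replicate 4 TK1 passed with both siRNAs, at 0.51 with s18790 (adjusted p = 0.00247) and 0.40 with s18789 (0.0440). With s18790 TK1 no longer passed without control replicate 1, 2 or 3 (0.0692, 0.0606 and 0.0676), with median scaling (0.127) and with just the 8 arrays of the comparison fitted (0.0904).

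TYMS, which makes thymidylate by the de novo route, had 10.57, 10.72, 10.37 and 10.28 on the s18790 arrays, 11.00, 10.90, 10.95 and 10.94 on the s18789 arrays and 10.96, 10.57, 10.83 and 10.84 on the control arrays. The s18790 arrays lay below all s18789 arrays, while control replicate 2 fell inside the s18790 range. TYMS was lower with s18790 than with s18789 by 0.46 ± 0.12 (n = 4 against 4, adjusted p = 0.0485), and its difference from control was -0.31 ± 0.12 with s18790 (adjusted p = 0.126) and 0.15 ± 0.12 with s18789. The call between the siRNAs was lost in 15 of 24 alternatives, including without each single array except s18790 replicate 2, with adjusted p from 0.0533 to 0.132. Without s18790 replicate 2 TYMS also passed against control (-0.39, adjusted p = 0.0392).

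RRM2, the small subunit of ribonucleotide reductase, averaged 8.02 ± 0.02 on the s18790 arrays, 8.15 ± 0.08 on the s18789 arrays and 7.84 ± 0.12 on the control arrays (SD, n = 4 each). The 3 groups did not overlap, with s18789 highest and control lowest, although s18790 replicate 4 and s18789 replicate 3 both round to 8.04. Its difference was 0.18 ± 0.09 with s18790 (adjusted p = 0.247) and 0.31 ± 0.09 with s18789 (adjusted p = 0.418), so the separation was not past the test over all probes. RRM1, the large subunit, stood at -0.14 with s18790 and 0.11 with s18789, and its lowest value, 10.02, came from s18790 replicate 2. Without that array the RRM1 difference with s18790 was 0.0066.

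**Figure D2:**
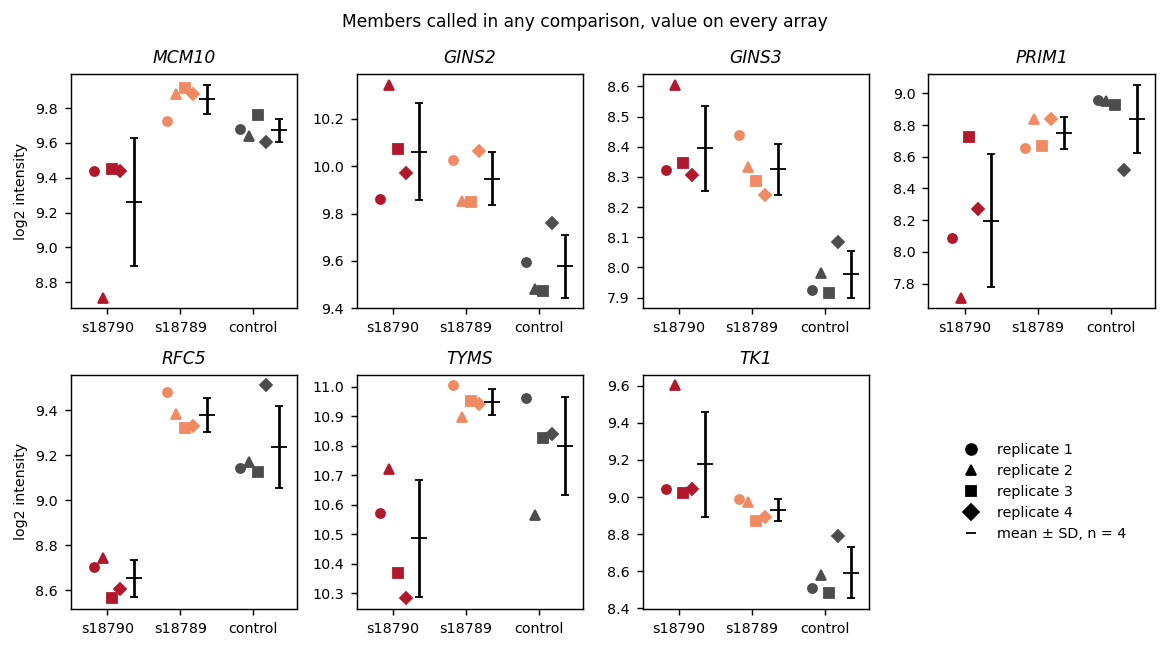
Log2 intensity of the 7 members called in any comparison, on each of the 4 s18790, 4 s18789 and 4 control arrays (symbols mark the replicate number, bars the mean ± SD). RFC5 lies between 8.57 and 8.74 on the s18790 arrays, below all others, whereas GINS2, GINS3 and TK1 lie above the controls with both SETD1A siRNAs.

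The 6 members that act on chromatin, repair or protein turnover in S phase had no call in any comparison, with adjusted p of 0.382 or more in each. CHAF1A, the large subunit of the chromatin assembly factor that deposits histones behind the fork, had 6.62, 7.24, 6.61 and 6.78 on the s18790 arrays, 6.96, 6.67, 6.65 and 6.98 on the s18789 arrays and 6.36, 6.53, 6.19 and 7.04 on the control arrays. Control replicate 4 exceeded all but s18790 replicate 2. Its difference was 0.28 ± 0.19 with s18790 and 0.28 ± 0.19 with s18789. Without s18790 replicate 2 the CHAF1A difference with s18790 was 0.14, and without control replicate 4 it was 0.45. CHAF1B, its partner, whose s18790 difference was -0.02 without the same s18790 array, stood at 0.12 with s18790 and 0.10 with s18789, and SLBP, which binds the stem-loop of histone mRNAs, at 0.10 with s18790 and 0.06 with s18789. UNG, which removes uracil from DNA, had 9.31, 9.52, 9.13 and 9.36 on the s18790 arrays, 9.17, 9.21, 9.27 and 9.16 on the s18789 arrays and 9.26, 9.08, 9.12 and 9.59 on the control arrays. The groups overlapped throughout, and the UNG difference was 0.07 ± 0.13 with s18790 and -0.06 ± 0.13 with s18789. UHRF1, which recognises hemimethylated DNA behind the fork, stood at -0.02 with s18790 and 0.04 with s18789, and DTL, which directs the destruction of CDT1 in S phase, at -0.01 with s18790 and 0.09 with s18789.

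Of the G1/S switch genes, CCNE1, E2F1 and E2F2 were measured and none was called. CCNE1 encodes cyclin E1, which activates CDK2 at the entry into S phase, and had 7.84, 8.26, 7.68 and 7.80 on the s18790 arrays, 7.66, 7.74, 7.38 and 7.56 on the s18789 arrays and 7.22, 7.17, 7.34 and 7.82 on the control arrays. Control replicate 4 lay inside the range of the s18790 arrays, far above the other controls. The CCNE1 difference was 0.51 ± 0.16 with s18790 (adjusted p = 0.0749) and 0.20 ± 0.16 with s18789, and without control replicate 4 it passed with s18790 (0.65, adjusted p = 0.0183). E2F2, an activating E2F factor, stood at 0.27 ± 0.10 with s18790 (adjusted p = 0.106) and 0.22 ± 0.10 with s18789, and passed with s18790 without control replicate 4 and s18790 replicate 2 together (0.38, 0.0136). E2F1 had 6.35, 6.37, 5.39 and 6.23 on the s18790 arrays, 5.90, 5.65, 6.04 and 5.78 on the s18789 arrays and 5.75, 5.14, 5.92 and 6.16 on the control arrays. Its values spread widely within the s18790 and control groups, and it was detected on 3 of 4 s18790, 4 of 4 s18789 and 3 of 4 control arrays. The E2F1 difference was 0.34 ± 0.24 with s18790 and 0.10 ± 0.24 with s18789, and with s18790 it was 0.57 without s18790 replicate 3 and 0.14 without control replicate 2.

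The count of members called was sensitive to single arrays. With s18790 the 3 higher calls became 0 without control replicate 1, 2 or 3, 5 without s18790 replicate 3 and 6 without control replicate 4. The count over all 15922 kept probes, in either direction, moved as well from its 1325. It was 583, 609 and 612 without control replicate 1, 2 or 3, 1658 without s18790 replicate 3 and 1693 without control replicate 4. Of the 2 lower calls only RFC5 was left without s18790 replicate 1 or 4, without control replicate 1, 2 or 3 or without any single s18789 array. RFC5 and TYMS were lower without s18790 replicate 2, RFC4, RFC5 and PRIM1 without s18790 replicate 3, and RFC5 and PRIM1 without control replicate 4. Without s18790 replicate 2 and control replicate 4 together there were 7 higher (CDT1, MCM5, GINS2, GINS3, TK1, CCNE1 and E2F2) and 4 lower (PRIM1, RFC4, RFC5 and TYMS). Of the 15922 kept probes, 2795 were then called. The same omission left TK1 as the only member called with s18789, among 124 probes.

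Each array was also summarised over all members. The median deviation of the 36 members from their 12-array means was 0.02, 0.09, 0.03 and 0.06 on s18790 replicates 1 to 4, and 0.10, 0.05, 0.04 and 0.03 on s18789 replicates 1 to 4. On control replicates 1 to 4 it was -0.10, -0.13, -0.07 and -0.0003. As a median over all kept probes, the deviation was 0.13 on s18790 replicate 2 and 0.03 on control replicate 4. On both of these arrays it exceeded that of the members, and on each other array it lay from -0.01 to 0.02. In the members all 8 siRNA arrays lay above all 4 control arrays, with control replicate 4 closest. This order held with quantile normalisation and not with median scaling, under which s18790 replicates 3 and 4 stood at -0.004 and -0.29 and control replicate 4 at 0.003. The median scaling put the all-probe median at -0.08 for s18790 minus control, 0.08 for s18789 minus control and -0.14 for s18790 minus s18789.

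Within each group the median member, read from its gene's brightest probe, varied less than the median kept probe. The kept probes were not matched to the members for intensity or detection. The median SD of a member over the 4 arrays was 0.21 with s18790, 0.10 with s18789 and 0.13 in controls, against 0.28, 0.15 and 0.18 over all kept probes. Leaving out s18790 replicate 2 and control replicate 4 brought it to 0.10 with s18790 and 0.08 in controls. On s18790 replicate 2, 20 of the 36 members were the highest of their group and 11 the lowest. On control replicate 4, 19 were the highest and 8 the lowest. The share of all probes at these extremes was not counted. Against the other arrays of its group, s18790 replicate 2 had a median of 0.11 over members and 0.17 over all kept probes. For control replicate 4 these medians were 0.12 and 0.07. The part of these arrays in the differences was not tested beyond the values without them given above.

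**Figure D3:**
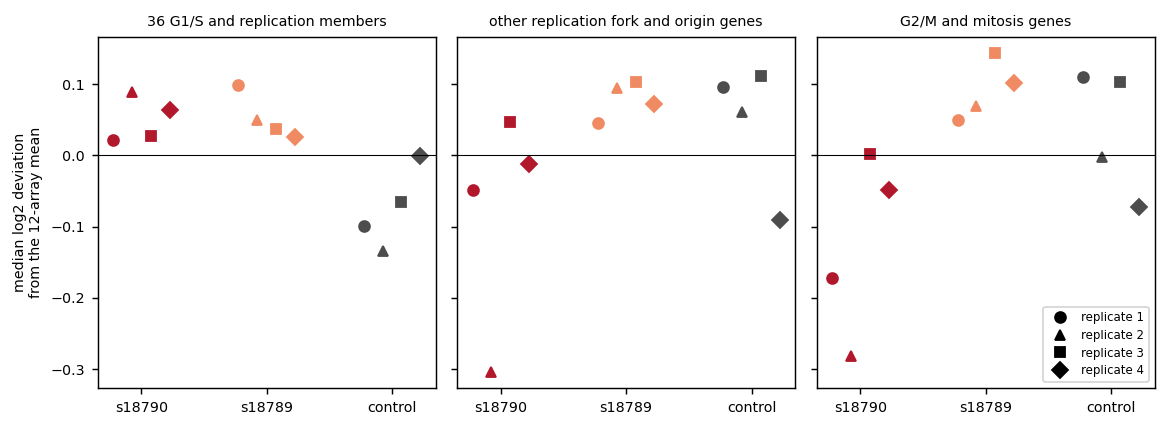
Median log2 deviation from the 12-array mean on each s18790, s18789 and control array, for the 36 measured members, 43 other replication genes and 40 G2/M and mitosis genes. The members lie above the controls on all 8 siRNA arrays, whereas in both other lists the lowest value, -0.30 and -0.28, belongs to s18790 replicate 2.

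Of the 36 measured members, 12 had more than 1 kept probe. In 9 of these all probes shared the sign of the s18790 difference. PRIM1 (-0.64 and -0.92), RFC4 (-0.56 and -0.44) and MCM10 (-0.41 and -0.36) were negative on both probes, and the second MCM10 probe was also lower with s18790 than with s18789 (-0.64, adjusted p = 0.0467). Probes disagreed in sign for ORC6 (0.14 and -0.35), RFC3 (0.11 and -0.22) and MCM7 (0.18, 0.25 and -0.06). None of these 3 genes was called on any probe.

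**Figure D4:**
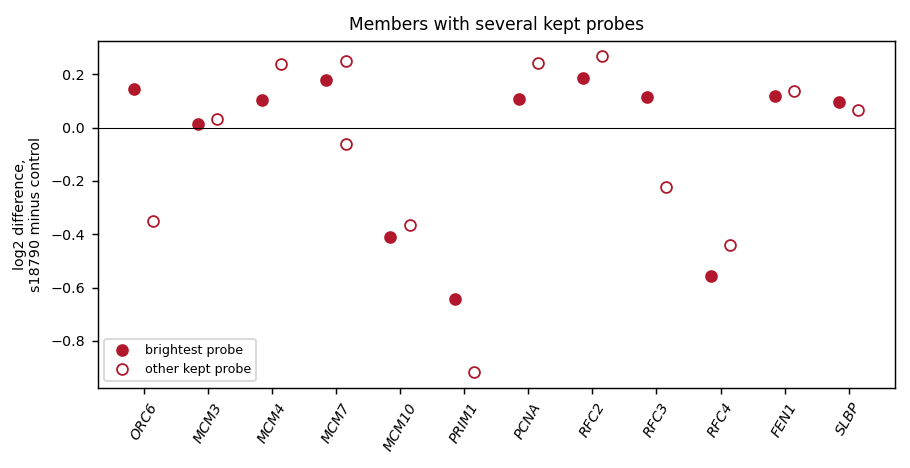
Log2 difference of s18790 minus control for each kept probe of the 12 members with several probes; filled points are the brightest probe, which stands for the gene, and open points the others. Both PRIM1, both RFC4 and both MCM10 probes lie below 0, while those of ORC6, MCM7 and RFC3 lie on both sides.

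Other genes of the pathway were read from the same fit. Of 49 further replication fork and origin genes 43 were measured, and with s18790 3 rose, 3 fell and 37 were not called (median -0.16). Among all kept probes 4.03% were called higher and 4.29% lower (median 0.01). LIG1, the ligase that joins lagging strand fragments, rose by 0.43 ± 0.11 (adjusted p = 0.0305), RECQL4, a helicase of replication initiation, by 0.41 ± 0.10 (0.0241), and POLE4, a small subunit of polymerase epsilon, by 0.56 ± 0.12 (0.0174). RPA3, the smallest subunit of the protein that coats single-stranded DNA, fell by 0.85 ± 0.11 (0.000810), ORC5, an origin recognition subunit, by 0.58 ± 0.14 (0.0274), and DUT, the dUTPase that keeps uracil out of DNA, by 0.39 ± 0.10 (0.0367). RPA3 and DUT were also lower with s18790 than with s18789, by 0.52 (adjusted p = 0.0212) and 0.41 (0.0449). The fall of RPA3 against control held in all 24 alternatives, with adjusted p up to 0.0135. The rise of LIG1 no longer passed without control replicate 1, 2 or 3 (0.102, 0.0863 and 0.0668), nor did that of POLE4 (0.0587, 0.0623 and 0.0567). RECQL4 no longer passed without s18790 replicate 1 or 4 or control replicate 1 or 3 (0.0552 to 0.0883), and with median scaling none of these 3 rises passed (0.112 to 0.221). ORC5 no longer passed without s18790 replicate 1 or control replicate 1, 2 or 3 (0.0664 to 0.0840), and DUT without s18790 replicate 1, any s18789 array or control replicate 1, 2 or 3 (0.0507 to 0.118). Between the siRNAs RPA3 no longer passed without s18790 replicate 1 or 4 or s18789 replicate 3 or 4 (0.0510 to 0.0819), and DUT without each of 9 single arrays, all but s18790 replicates 3 and 4 and control replicate 4 (0.0529 to 0.137). With s18789 against control none of the 43 was called (median 0.08), where 0.0942% of all kept probes were (median 0.01).

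Among 24 measured regulators of G1/S, CCND3, a D-type cyclin, rose with s18790 by 0.57 ± 0.13 (adjusted p = 0.0181) and CDC25A, a phosphatase that activates CDK2, by 0.41 ± 0.10 (0.0267), and RBL2, a relative of the retinoblastoma protein, fell by 0.49 ± 0.11 (0.0187). The remaining 21 were not called, and the median was -0.03. All kept probes had a median of 0.01, with 4.03% called higher and 4.29% lower. The 3 calls no longer passed without control replicate 1, 2 or 3 (CCND3 0.0501, 0.0628 and 0.0638, CDC25A 0.0525, 0.0716 and 0.0907, RBL2 0.0668, 0.0558 and 0.0668), nor CDC25A without s18790 replicate 1 (0.0665), with median scaling (0.234) or as the mean of its probes (0.300), nor CCND3 with median scaling (0.133). The CDK inhibitor CDKN1A was higher with s18790 than with s18789 by 0.60 ± 0.13 (adjusted p = 0.0245), and its differences from control were 0.40 with s18790 (adjusted p = 0.0785) and -0.20 with s18789. The CDKN1A call no longer passed when s18790 replicate 1 or any of s18789 replicates 2 to 4 was omitted (0.0597 to 0.0867) or with median scaling (0.149). With s18789 none of the 24 was called (median 0.08), where 0.0942% of all kept probes were (median 0.01).

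Of 40 G2/M and mitosis genes, all measured, 9 had a positive difference with s18790 against control, where 50.8% of all kept probes had. The median was -0.16, against 0.01 over all probes, and 1 gene was called, where 8.32% of probes were. That gene was CKS1B, a small partner of cyclin-dependent kinases, which fell by 0.42 ± 0.11 (adjusted p = 0.0297) and was lower than with s18789 by 0.42 ± 0.11 (0.0452). The fall against control no longer passed without s18790 replicate 1 or control replicate 1, 2 or 3 (0.0581 to 0.102) or with median scaling (0.132), and the difference between the siRNAs without each of 9 single arrays, all but s18790 replicates 2 and 4 and control replicate 4 (0.0555 to 0.123). With s18789, 32 of 40 were positive (52.7% of all kept probes were), with a median of 0.12 (0.01 over all probes) and none called. On s18790 replicate 2 these genes lay at a median deviation of -0.28, where s18790 replicates 1, 3 and 4 gave -0.17, 0.002 and -0.05. The difference between this list and the members was not tested.

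With s18790, of 11 measured sympathoadrenal markers 4 rose (HAND1, DLK1, DDC and GATA3) and 1 fell (CHGB), and of 6 mesenchymal markers COL1A1 rose and YAP1, COL3A1 and SNAI2 fell. The shares of all kept probes were 4.03% called higher and 4.29% called lower. HAND1 differed by 1.05, DLK1 by 0.83, CHGB by -0.69, COL3A1 by -0.86 and YAP1, detected on 1 of 4 s18790 arrays, by -1.12, and these 5 calls held in every alternative in which the gene was tested. GATA3 (0.45) no longer passed without s18790 replicate 1 or control replicate 3 (0.0547 to 0.0695), DDC (0.46) without control replicate 1 or 3 (0.0518 to 0.0525), SNAI2 (-0.48) without control replicate 3 (0.0603) and COL1A1 (0.64) without control replicate 1 (0.0528). Counting all 24 alternatives, GATA3 was lost in 4 (adjusted p up to 0.156), DDC in 4 (0.0909), SNAI2 in 3 (0.0803) and COL1A1 in 2 (0.0632). The log2 of the summed sympathoadrenal signal was 14.87 to 15.07 with s18790, 14.85 to 15.01 with s18789 and 14.90 to 14.93 in controls. That of the mesenchymal markers was 12.51 to 12.78 with s18790, 12.31 to 12.57 with s18789 and 12.61 to 12.71 in controls. The s18789 arrays thus lay wholly below the control arrays in summed mesenchymal signal, while the s18790 arrays overlapped them. This sum of linear intensities is weighted to the brightest probes. As a median of the 6 differences, the mesenchymal markers stood at -0.23 with s18790, with 1 called higher and 3 lower. With s18789 none of the 11 sympathoadrenal (median 0.02) and none of the 6 mesenchymal markers (median -0.17) was called, where 0.0942% of all kept probes were. Their part in the changes of the replication genes was not tested.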

How the data were processed

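RNA of 12 SH-SY5Y samples was measured on Illumina bead arrays. Linear intensity values without normalisation between arrays, each with a detection p-value per probe, were deposited by the authors, and per the submitters' processing notes GenomeStudio was used. The authors' deposited value table holds log2 values (median 6.33 on every array, in the rank order of the intensities), whose normalisation and centring are not stated, and which served as an alternative. The labels do not give the chip of each array.

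Intensities were background-corrected with normexp through the detection p-values (limma 3.58.1 in R 4.3.3, offset 16), quantile-normalised and log2-transformed. Of 47321 probes, 15922 with detection p under 0.01 on at least 4 arrays were kept. Of all probes, 30113 had 1 gene symbol in GEO's platform annotation, 8 several and 17200 none. Each gene was taken from its brightest kept probe, and levels are not compared between probes. All 3 groups entered 1 limma fit (lmFit, contrasts, eBayes), with Benjamini-Hochberg adjustment over the 15922 probes and a threshold of 0.05. Named genes were SETD1A, every member and genes of 6 lists that were called or mark a cell type. Members and lists were chosen with earlier results of these data known. The fit was tested on simulated data. No pair among the 12 arrays held identical values. The number of arrays limits the precision. Alternatives were the background correction, offset, scaling, detection filter, array weights, variance trend, replicate block, probe summary, deposited log2 table, fitted groups and omission of arrays.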

Additional observations from a re-analysis of the deposited data

Results flagged for a closer look

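Within-group gaps were examined for 36 members and SETD1A in the 3 groups of 4 arrays (111 in all), and 9 held an array far from the other 3, where chance gives about 1 in 20. Of these, 4 were on s18790 replicate 2. On that array MCM10 was at 8.71 (nearest other s18790 value 9.44) and POLA1 at 6.66 (nearest 8.09), both low, whereas GINS3 was at 8.61 (nearest 8.35) and TK1 at 9.60 (nearest 9.04), both high. On control replicate 4, 3 members stood apart. MCM2 was at 8.96 there (nearest other control value 8.64) and RFC5 at 9.51 (nearest 9.17), both high, and PRIM1 was low at 8.52 (nearest 8.93). The other 2 were ORC1, at 5.40 on control replicate 2 (nearest 5.80), and E2F1, at 5.39 on s18790 replicate 3 (nearest 6.23). The gaps come from the same arrays and are not independent, so the rate of 1 in 20 is no test of the 9. How often such gaps occurred over all kept probes was not counted. Since s18790 replicate 2 and control replicate 4 also lay apart on the first principal component, an excess particular to the members is not shown.

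The effect of the siRNAs differed by the limma test between them for 3 members (8.33%, against 4.2% of all kept probes). With s18790 relative to s18789, RFC5 was lower by a log2 difference of -0.72 (adjusted p = 0.00336), MCM10 by -0.59 (0.0490) and TYMS by -0.46 (0.0485). All 4 s18790 arrays lay below all 4 s18789 arrays for each of the 3, as they did for 11.1% of members and 6.1% of all kept probes. The RFC5 call held in all 24 alternatives, whereas that of MCM10 was lost in 13 and that of TYMS in 15.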

How the results depend on the processing

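Of 24 alternatives, none reversed a call; RFC5 passed with s18790 against control and against s18789 in all 24. Median scaling called 809 probes in either direction with s18790 against control, with 0 members higher and 2 lower. Between the siRNAs it called 693 probes, with 0 members higher and 4 lower. Member medians were then 0.045 (s18790 minus control), 0.22 (s18789 minus control) and -0.13 (s18790 minus s18789). By direction, median scaling gave 173 probes higher and 636 lower with s18790 against control, where quantile normalisation gave 642 and 683. Between the siRNAs it gave 102 higher and 591 lower, where quantile normalisation gave 373 and 295. Without the detection filter all 39 members were tested among 47321 probes. With s18790 against control 3 members were higher and 1 lower, among 1155 probes called. Between the siRNAs 0 were higher and 1 lower, among 602 probes called. SETD1A with s18790 then stood at -0.63 (adjusted p = 0.0502). With detection on all 12 arrays required, 9 probes were called with s18789.

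Correlations of deviations between same-numbered arrays of different groups ran from -0.58 to 0.58, with 6 of 12 over 0.1. They include s18790 replicate 2 and control replicate 4, which lay apart, and so cannot decide whether same-numbered samples were paired. With the replicate block 3, 834 and 296 probes were called for s18789 against control, s18790 against control and s18790 against s18789, with 1 member higher and 1 lower for s18790 against control, 1 lower between the siRNAs and SETD1A at -0.63 (adjusted p = 0.0510). With the 8 arrays of a comparison alone the probe counts in that order were 41, 430 and 200, with 0 members higher and 1 lower for s18790 against control, 1 lower between the siRNAs and SETD1A at -0.63 (0.0999). Array weights called 385, 3117 and 1577 probes, with 4 members higher for s18789 and 7 higher and 4 lower for s18790 against control. Without s18790 replicate 2 and control replicate 4 together the probe counts were 124, 2795 and 1644, with 1 member higher for s18789 and 7 higher and 4 lower for s18790.

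Leaving out single arrays, the probes called ranged from 3 (without s18789 replicate 1) to 80 (without s18790 replicate 2) for s18789 against control. They ranged from 583 (without control replicate 1) to 1793 (without s18790 replicate 2) for s18790 against control, and from 205 (without s18789 replicate 4) to 1082 (without s18790 replicate 3) between the siRNAs. Members called with s18790 against control ranged from 0 to 6 higher and from 1 to 3 lower, those lower between the siRNAs from 1 to 4, and SETD1A with s18790 from -0.77 to -0.51. The cause of these shifts was not tested. Over all 24 alternatives the sign was kept by 25 of 36 members for s18790 against control, 28 of 36 for s18789 against control and 17 of 36 between the siRNAs. With 4 arrays a group, and ORC1, E2F1 and POLD3 not detected on every array, small differences could not be resolved.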
